A study of Mus musculus with 24 samples.

Results

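The insulin-like growth factor (IGF) system was followed in the maternal-fetal interface (MFI) of the mouse through its 10 genes Igf1, Igf2, Igf1r and Igfbp1 to Igfbp7, which were taken by name from the 55401 genes of the read count table. All 10 were present once and all 10 passed the expression filter in every comparison. RNA came from the MFI of wild-type (WT) mice of the C57BL/6 background and of mice homozygous for a CRISPR deletion of 3 exons of C1qtnf6 (C1qtnf6-KO), a secreted protein of the C1q and TNF related family. Samples were taken on 4 gestational days (gd), from gd10.5 over gd14.5 and gd16.5 to gd19.5, and each genotype had 3 libraries on each day, 24 in all. The labels call the tissue MFI, while the methods speak of placentae, and neither names the litter or dam of a library, so p-values measure the spread between these samples, which may be partly technical.

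IGF1 and IGF2 are small peptide hormones that resemble insulin and drive growth by binding the receptor tyrosine kinase IGF1R. The IGF binding proteins hold the peptides outside cells, carry them and either block or prolong their action, and proteases of the pappalysin family free the peptides by cutting the binding proteins. In rodent pregnancy, the imprinted gene Igf2 is a main growth factor of the fetus and placenta, while decidual cells and yolk sac make several of the binding proteins.

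Total counts lay between 20975717 and 37383108 reads per library, and levels are given as CPM, the usual read count of a gene scaled to the normalized library size, ± SD over 3 libraries. C1qtnf6 itself, the targeted gene, averaged 67.1 to 158 CPM in the WT groups and 0.416 to 1.05 CPM in the KO groups. The members were read against lists of marker genes for the cell types of the MFI, and 4 libraries stood apart in these lists. KO replicate 2 of gd10.5 had a summed level of the 5 spongiotrophoblast and glycogen cell markers of 10720 CPM, against at most 2111 CPM in the other gd10.5 libraries, and its 7 decidual stroma markers summed to 3149 CPM, the lowest of that stage. Most of the first sum was Tpbpa, which alone held 10140 CPM in this library and at most 1769 CPM in the other gd10.5 libraries. WT replicate 1 and KO replicates 1 and 2 of gd16.5 had sums of 7490, 7163 and 19930 CPM over the 6 visceral yolk sac endoderm markers, against at most 182 CPM in the other gd16.5 libraries. At gd10.5 these yolk sac markers summed to 3654 CPM in WT replicate 1 and to 1202 to 3606 CPM in the KO libraries, against 14.4 and 20.4 CPM in the other WT libraries. None of the genes of these 3 lists was at 0 in every library of a group. In such bulk samples, fewer cells of a type and less RNA per cell cannot be told apart.

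Igf2 has to be read with a limit that comes from its gene model. Igf2 (ENSMUSG00000048583) lies on the minus strand at chr7:142650766-142666816 of GRCm38, and 3694 of its 5723 exon bases (64.5%) are also covered by exons of other genes. Of these, 3596 bases belong to Gm49394, a gene model on the same strand, and 98 to the antisense gene Igf2os. All 540 coding bases of the first-numbered GENCODE transcript of Igf2 lie inside exons of Gm49394. Counting with default settings assigns a read that overlaps exons of more than 1 gene to neither, so the Igf2 counts come from the remaining 2029 bases, and the Igf2 level is a lower limit. Gm49394 itself received 9 to 35 reads per library. The shared stretch is shown by exon 3 of this transcript (chr7:142654300-142654448, minus strand, GRCm38, GENCODE M21), a coding exon of 149 bases that is also exon 4 of the first-numbered Gm49394 transcript and is part of 6 of the 9 Igf2 transcripts, and is printed wholly in lower case.
Igf2 exon: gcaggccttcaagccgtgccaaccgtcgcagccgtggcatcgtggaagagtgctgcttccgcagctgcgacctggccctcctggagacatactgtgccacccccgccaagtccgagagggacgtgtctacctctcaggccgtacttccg
The exons of 8 other members were shared with no other gene, and Igfbp7 shared 85 of its 1209 exon bases with Polr2b on the opposite strand.

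To show the start regions of binding proteins with different courses, the 250 bases before the start of transcription are given for Igfbp2 and Igfbp7, which rose between gd10.5 and gd14.5, for Igfbp3 and Igfbp5, which fell, and for Igfbp1 (RefSeq, GRCm38.p6, all in the direction of the gene). Capitals mark the GC box GGGCGG on either strand, the site of Sp-family factors, in the first 4 sequences. A match is a description of the letters only.
Igfbp2 (chr1:72824230-72824479, plus strand): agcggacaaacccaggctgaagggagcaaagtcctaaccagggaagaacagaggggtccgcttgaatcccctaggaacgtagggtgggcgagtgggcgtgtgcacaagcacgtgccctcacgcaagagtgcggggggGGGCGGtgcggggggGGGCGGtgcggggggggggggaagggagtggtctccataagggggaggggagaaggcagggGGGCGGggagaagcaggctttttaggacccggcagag
Igfbp7 (chr5:77408046-77408295, minus strand): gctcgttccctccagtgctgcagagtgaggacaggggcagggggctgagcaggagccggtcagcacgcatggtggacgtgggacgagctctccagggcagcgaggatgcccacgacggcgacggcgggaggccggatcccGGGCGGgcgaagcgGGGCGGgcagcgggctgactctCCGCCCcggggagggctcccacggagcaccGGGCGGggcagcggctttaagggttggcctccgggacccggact
Igfbp3 (chr11:7213924-7214173, minus strand): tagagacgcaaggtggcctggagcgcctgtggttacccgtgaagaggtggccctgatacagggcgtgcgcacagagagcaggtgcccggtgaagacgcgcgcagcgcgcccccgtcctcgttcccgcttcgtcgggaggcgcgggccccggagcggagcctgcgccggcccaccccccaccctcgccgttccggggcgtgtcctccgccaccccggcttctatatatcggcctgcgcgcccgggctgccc
Igfbp5 (chr1:72874866-72875115, minus strand): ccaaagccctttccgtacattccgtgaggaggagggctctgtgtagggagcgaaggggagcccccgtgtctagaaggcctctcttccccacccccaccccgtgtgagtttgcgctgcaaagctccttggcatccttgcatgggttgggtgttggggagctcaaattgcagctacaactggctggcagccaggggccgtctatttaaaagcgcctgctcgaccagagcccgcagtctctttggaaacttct
In the sequence of Igfbp1, capitals mark CAAAACA, the core of an insulin response element.
Igfbp1 (chr11:7197537-7197786, plus strand): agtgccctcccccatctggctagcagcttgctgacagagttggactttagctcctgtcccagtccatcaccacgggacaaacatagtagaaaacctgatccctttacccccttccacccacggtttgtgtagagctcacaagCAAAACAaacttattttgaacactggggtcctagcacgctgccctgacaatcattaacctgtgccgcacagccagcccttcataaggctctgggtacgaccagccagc
Igfbp2 held 3 GC boxes at the start printed and 0 at its second RefSeq start (chr1:72825137-72825386, plus strand), which is not printed, Igfbp7 held 4, and Igfbp3 and Igfbp5 had no match in this window. A GC box stood in 32.7% of the 32851 promoters of this length. The CAAAACA of Igfbp1 began 108 bases before the start, and 5.56% of all promoters held these letters on either strand. Igfbp2 and Igfbp5 are neighbours on chromosome 1, on opposite strands and 5457 bases apart, and Igfbp1 and Igfbp3 are neighbours on chromosome 11, on opposite strands and 3539 bases apart.

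The question of the stage comparison was how the system changes as the decidua recedes and the placenta grows. Between gd10.5 and gd14.5, the growth factor Igf1 and the binding proteins Igfbp3, Igfbp4, Igfbp5 and Igfbp6 fell, and Igfbp2 and Igfbp7 rose, in both genotypes. By the quasi-likelihood test of edgeR with Benjamini-Hochberg adjustment over 19299 genes, 8 of 10 members were called at an adjusted p under 0.05 in WT, 3 higher and 5 lower. Of all genes, 26.2% were called higher and 27.8% lower in this comparison. In KO, 8 of 10 were called too, 2 higher and 6 lower, against 24.7% of all genes higher and 26.4% lower. The same 7 members were called in both genotypes, and Igf2 was called in WT and Igfbp1 in KO. The median log2 fold change of the members was -1.09 in WT, with -0.02 over all genes tested.

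**Figure D1:**
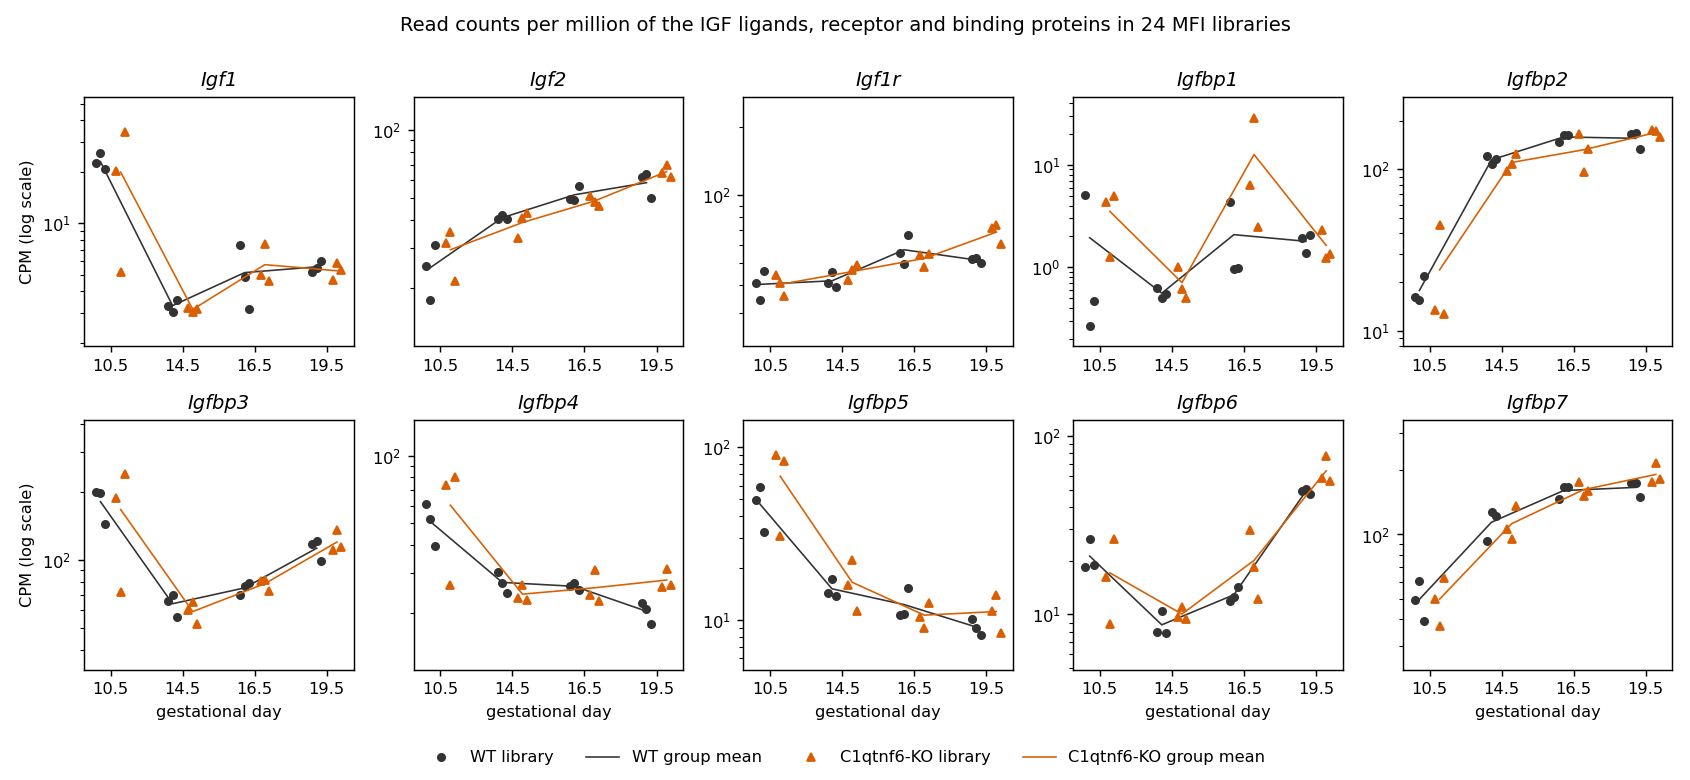
Level of each of the 10 genes in CPM (log scale) in every library by gestational day, with WT libraries as grey circles, C1qtnf6-KO libraries as orange triangles and lines through the group means. Igf1 dropped from 20.6 to 25.6 CPM in WT at gd10.5 to 3.04 to 3.57 CPM at gd14.5, and Igfbp2 rose from 15.4 to 21.7 CPM to 107 to 120 CPM.

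Igf1, the growth factor that growth hormone controls after birth, had the largest fall of the members between gd10.5 and gd14.5. It stood at 22.5, 25.6 and 20.6 CPM in the WT libraries of gd10.5 and at 3.26, 3.04 and 3.57 CPM in those of gd14.5, which did not overlap. In KO it stood at 20.2, 5.18 and 34.4 CPM at gd10.5 and at 3.21, 3.04 and 3.14 CPM at gd14.5. KO replicate 2 of gd10.5, the library with few decidual and many spongiotrophoblast transcripts, was the low one. The log2 fold change was -2.80 ± 0.42 (SE) in WT (6.98-fold lower, adjusted p = 1.94e-05) and -2.67 ± 0.42 in KO (adjusted p = 3.74e-05). Without KO replicate 3 of gd10.5 the KO value was -2.02, and without KO replicate 2 it was -3.12. After gd14.5, group means of Igf1 were 5.14 to 5.72 CPM, and no later step of Igf1 passed the test.

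Igf2 had the opposite course in its countable exons. WT libraries held 25.0, 17.6 and 31.1 CPM at gd10.5 and 40.5, 42.0 and 40.2 CPM at gd14.5, and in WT Igf2 rose by 0.74 ± 0.17 on the log2 scale (adjusted p = 0.0012). The KO libraries held 31.7, 35.4 and 21.5 CPM and then 33.2, 40.9 and 42.8 CPM, which overlapped, with a log2 fold change of 0.40 ± 0.17 (adjusted p = 0.0548). At gd19.5 the group means reached 58.5 ± 7.63 CPM in WT and 65.5 ± 4.08 CPM in KO, with no called step after gd14.5. Per kilobase of the 2029 bases no other gene shares, Igf2 stood at 20.2 CPM in WT at gd14.5 and Igf1 at 0.332 CPM per kilobase, and the ratio of both was 54.9 to 67.5 over the 3 libraries, against 3.35 to 7.36 at gd10.5. In KO the ratio spread more widely at gd10.5, from 3.05 to 33.3, and was 50.5 to 66.6 at gd14.5. H19, the imprinted non-coding RNA beside Igf2, stood at 2892 CPM per kilobase in WT at gd14.5. How far the shared exons lower the Igf2 level was not tested.

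Igf1r, the receptor through which both peptides signal, varied least. Its group means lay between 40.3 and 68.7 CPM, a 1.71-fold range, and gd14.5 and gd10.5 did not differ in either genotype past the threshold, with log2 fold changes of 0.05 ± 0.12 in WT (adjusted p = 0.713) and 0.19 ± 0.12 in KO (adjusted p = 0.187). From gd14.5 to gd16.5 it rose in WT, from 40.7, 45.5 and 39.1 CPM to 55.6, 49.4 and 67.0 CPM, by 0.46 ± 0.12 on the log2 scale (adjusted p = 0.0104). This call was lost without WT replicate 3 of gd14.5 (adjusted p = 0.0540) and without WT replicate 3 of gd16.5 (adjusted p = 0.0661).

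Among the binding proteins, Igfbp3, Igfbp4 and Igfbp5 fell together. Igfbp3, which carries most of the IGF of adult blood, went from 200, 199 and 145 CPM in WT at gd10.5 to 66.0, 69.9 and 56.1 CPM at gd14.5, a fall by 1.50 ± 0.26 on the log2 scale (adjusted p = 7.86e-05), and the KO value was the same size, -1.50 ± 0.26 (adjusted p = 9.22e-05). The KO libraries of gd10.5 held 188, 72.5 and 242 CPM of Igfbp3, with replicate 2 again the low one, and those of gd14.5 held 60.2, 64.9 and 52.2 CPM. Igfbp5, the binding protein most conserved among vertebrates, went from 49.7, 58.9 and 32.1 CPM to 14.4, 17.4 and 13.7 CPM in WT, a log2 fold change of -1.63 ± 0.32 (adjusted p = 0.000269), and fell by 2.03 ± 0.32 in KO (adjusted p = 3.84e-05). Igfbp4, which mostly blocks IGF action, fell by 0.90 ± 0.26 in WT (adjusted p = 0.00596) and by 1.31 ± 0.26 in KO (adjusted p = 0.000333). The Igfbp4 libraries of the KO groups overlapped, since replicate 2 of gd10.5 held 26.6 CPM and those of gd14.5 held 23.0 to 26.6 CPM.

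Igfbp6, which prefers IGF2 over IGF1, fell at this step and rose later. WT libraries went from 18.3, 26.4 and 18.9 CPM at gd10.5 to 7.92, 10.47 and 7.82 CPM at gd14.5. They stood at 11.9, 12.5 and 14.2 CPM on gd16.5 and reached 49.4, 50.2 and 47.6 CPM on gd19.5. The fall to gd14.5 was 2.43-fold in WT (log2 fold change -1.28 ± 0.30, adjusted p = 0.0013). In KO, where the libraries overlapped, it was 1.70-fold (-0.77 ± 0.30, adjusted p = 0.0366), and this call was lost without KO replicate 1 or 3 of gd10.5 and without any 1 of the KO libraries of gd14.5 (adjusted p between 0.0573 and 0.391), and when only the 6 libraries compared were fitted. Igfbp6 was the 1 member called between gd16.5 and gd19.5 in both genotypes, with a rise of 1.93 ± 0.30 on the log2 scale in WT (3.81-fold, adjusted p = 0.00122) and of 1.67 ± 0.29 in KO (3.18-fold, adjusted p = 0.00374). The KO libraries held 29.6, 18.5 and 12.2 CPM at gd16.5 and 58.3, 76.8 and 56.1 CPM at gd19.5. Without the libraries that stand apart, where 1 KO library of gd16.5 remained, the KO rise was 2.39 on the log2 scale. At this step 4 of 6 smooth muscle markers were called higher in KO and 0 of 6 in WT, and their part in the Igfbp6 level was not tested.

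Igfbp2 and Igfbp7 rose. Igfbp2, a binding protein abundant in fetal tissues, went from 16.1, 15.4 and 21.7 CPM in WT at gd10.5 to 120, 107 and 116 CPM at gd14.5, a rise of 2.69 ± 0.33 on the log2 scale (6.47-fold, adjusted p = 2.48e-06). In KO it went from 13.5, 45.1 and 12.8 CPM to 98.1, 107 and 125 CPM, by 2.21 ± 0.32 (adjusted p = 1.78e-05), and the high library at gd10.5 was replicate 2, without which the rise was 3.07. Igfbp7, which binds IGFs only weakly and is found in vessel walls, went from 49.3, 60.2 and 39.1 CPM to 92.8, 127 and 123 CPM in WT and from 49.6, 37.0 and 62.5 CPM to 106, 94.7 and 136 CPM in KO. Its log2 fold changes were 1.20 ± 0.18 in WT (adjusted p = 1.69e-05) and 1.18 ± 0.18 in KO (adjusted p = 2.53e-05), and no library of gd14.5 overlapped with gd10.5 in either genotype. The neighbours Igfbp2 and Igfbp5 thus moved in opposite directions in both genotypes.

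**Figure D2:**
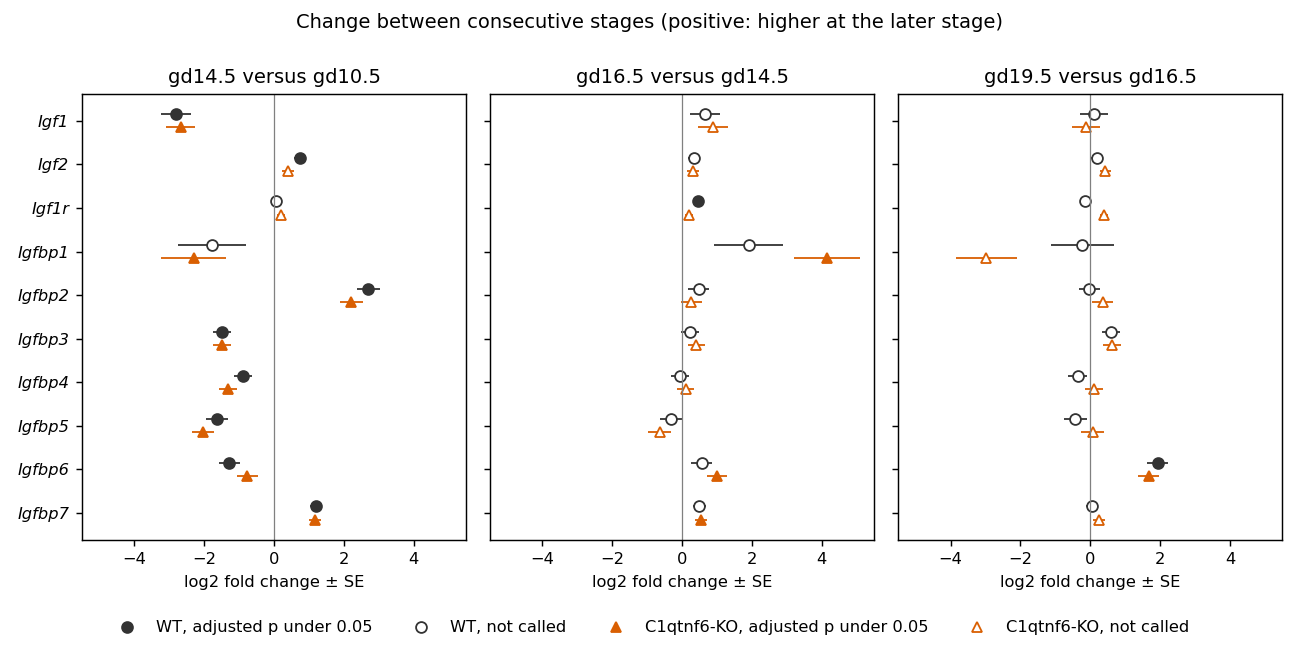
Log2 fold change of each member between consecutive stages with its standard error, in WT (grey circles) and C1qtnf6-KO (orange triangles), where filled symbols have an adjusted p under 0.05 by edgeR. The first panel holds 8 filled symbols per genotype, and in the last panel the filled symbols belong to Igfbp6, at 1.93 in WT and 1.67 in KO.

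Marker lists moved with these changes. All 7 decidual stroma markers were called lower at gd14.5 in WT and in KO, and their summed level went from 7435 to 15256 CPM in the WT libraries of gd10.5 to 3270 to 3534 CPM at gd14.5, and from 3149 to 13725 CPM to 3058 to 4092 CPM in KO. Of the labyrinth trophoblast markers, 5 of 5 tested were called higher at gd14.5 in both genotypes, and the sum over the list of 6 went from 636 to 972 CPM to 3534 to 4606 CPM in WT and from 374 to 1431 CPM to 3536 to 4568 CPM in KO. Synb, the untested gene of that list, was at 0 in every WT library of gd10.5. In the WT libraries of gd19.5, 1 gene of the list was again at 0 throughout, so a 0 in this list was not particular to gd10.5. In each group of either genotype and any stage, only 5 of the 6 genes reached 3 counts in every library. All 4 NK cell markers were called lower in both genotypes, with sums of 385 to 585 CPM in WT at gd10.5 and 61.8 to 99.8 CPM at gd14.5, and of 224 to 576 CPM and 40.8 to 113 CPM in KO. Of the 5 spongiotrophoblast and glycogen cell markers, 3 were called higher in both genotypes, with sums of 1469 to 2111 CPM and 23580 to 25610 CPM in WT and of 887 to 10720 CPM and 20875 to 24985 CPM in KO. Tpbpa alone held 19660 to 21519 CPM in WT at gd14.5. Of the 6 visceral yolk sac markers, 2 were called lower in WT and all 6 in KO. None of these lists held a gene of the IGF system. The part of cell make-up in the changes of Igf1, Igfbp2, Igfbp3, Igfbp4, Igfbp5, Igfbp6 and Igfbp7 was not tested. The 8 WT calls of this step and the KO calls of Igf1, Igfbp2, Igfbp3, Igfbp4, Igfbp5 and Igfbp7 held when any 1 library of the 2 groups compared was left out.

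Smaller steps followed. Between gd14.5 and gd16.5, 1 of 10 members was called in WT, Igf1r, with 9.73% of all genes called higher and 8.37% lower. In KO 3 were called, all higher, against 12% of all genes higher and 11.6% lower. These were Igfbp1 (4.15 ± 0.95 on the log2 scale, adjusted p = 0.00383), Igfbp6 (0.99 ± 0.30, adjusted p = 0.0201) and Igfbp7 (0.53 ± 0.18, adjusted p = 0.0327). No member was called in both genotypes at this step. Igfbp7 stood at 92.8, 127 and 123 CPM in WT at gd14.5 and at 147, 168 and 167 CPM at gd16.5, which did not pass the test (0.49 ± 0.17, adjusted p = 0.0553). Without the 4 libraries that stand apart, 4 members were called in WT (Igf1r, Igfbp2, Igfbp6 and Igfbp7) and 0 in KO, where 1 library of gd16.5 then remained. In KO, the Igfbp6 call was lost without replicate 1 of gd16.5 (adjusted p = 0.161) or replicate 1 or 3 of gd14.5, and the Igfbp7 call without any 1 library except replicate 3 of gd14.5. Between gd16.5 and gd19.5, Igfbp6 was the 1 call of 10 members in WT, with 1.97% of all genes called higher and 2.67% lower, and in KO, with 3.02% higher and 2.96% lower.

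The make-up of the binding proteins was compared on the scale of CPM per kilobase of exon. At gd10.5 in WT, Igfbp3 made up 39.0% ± 1.89 of the summed Igfbp level, Igfbp7 27.5% ± 1.97, Igfbp6 12.9% ± 2.00, Igfbp4 7.78% ± 0.96, Igfbp2 6.74% ± 2.52 and Igfbp5 5.19% ± 0.75. At gd14.5 the order was another, with Igfbp7 at 48.5% ± 5.05, Igfbp2 at 32.1% ± 3.93 and Igfbp3 at 10.6% ± 1.36. At gd19.5 Igfbp6 stood above Igfbp3 on this scale, with 14.3% ± 0.95 and 11.6% ± 0.24. With the longest transcript in place of all exons this order was reversed, with 12.4% and 13.1%. In KO at gd14.5, Igfbp7 had 48.9% ± 4.38 and Igfbp2 31.5% ± 1.47. In KO at gd10.5, Igfbp2 had 11.0% ± 12.03, or 4.10% without replicate 2. The summed level of all 7 in WT was 148 ± 23.5 CPM per kilobase at gd10.5 and 194 ± 12.7 at gd14.5, then 264 ± 16.1 on gd16.5 and 309 ± 27.5 on gd19.5. These shares are of RNA and say nothing on how much of each protein was present.

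**Figure D3:**
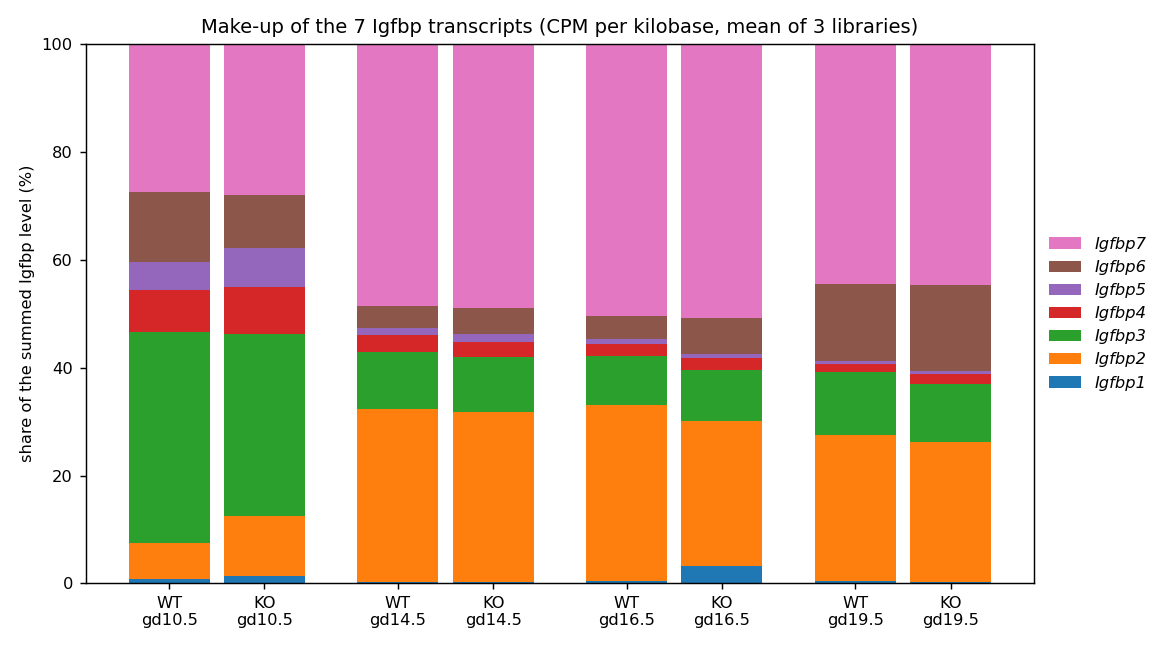
Share of each binding protein gene in the summed level of all 7 (percent of CPM per kilobase, mean of 3 libraries) by genotype and gestational day. The Igfbp3 part shrinks from 39.0% to 10.6% in WT between gd10.5 and gd14.5, while Igfbp2 and Igfbp7 together fill most of the later bars.

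Igfbp1, which is repressed by insulin and is made by liver, decidua and yolk sac, was the member with the widest range of levels. It held 5.09, 0.270 and 0.465 CPM in WT and 4.29, 1.26 and 4.98 CPM in KO at gd10.5, and at most 1.01 CPM at gd14.5. At gd16.5 it held 4.30, 0.972 and 0.973 CPM in WT and 6.42, 28.9 and 2.46 CPM in KO, where the highest value rests on 939 reads. The 6 libraries with the highest Igfbp1 level (at least 4.29 CPM) were the 6 with the highest summed visceral yolk sac endoderm markers (at least 2190 CPM). The next Igfbp1 level was 2.46 CPM, and the yolk sac sum of the other 18 libraries reached 1202 CPM, in KO replicate 2 of gd10.5, and otherwise at most 278 CPM. Albumin, a product of yolk sac and liver, stood at 1027 CPM in KO replicate 2 of gd16.5 and at 150 and 164 CPM in KO replicate 1 and WT replicate 1 of that stage. Within gd14.5 and gd19.5, no library had a yolk sac sum above 278 CPM or an Igfbp1 level above 2.31 CPM. The part of yolk sac tissue in the Igfbp1 level was not tested.

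**Figure D4:**
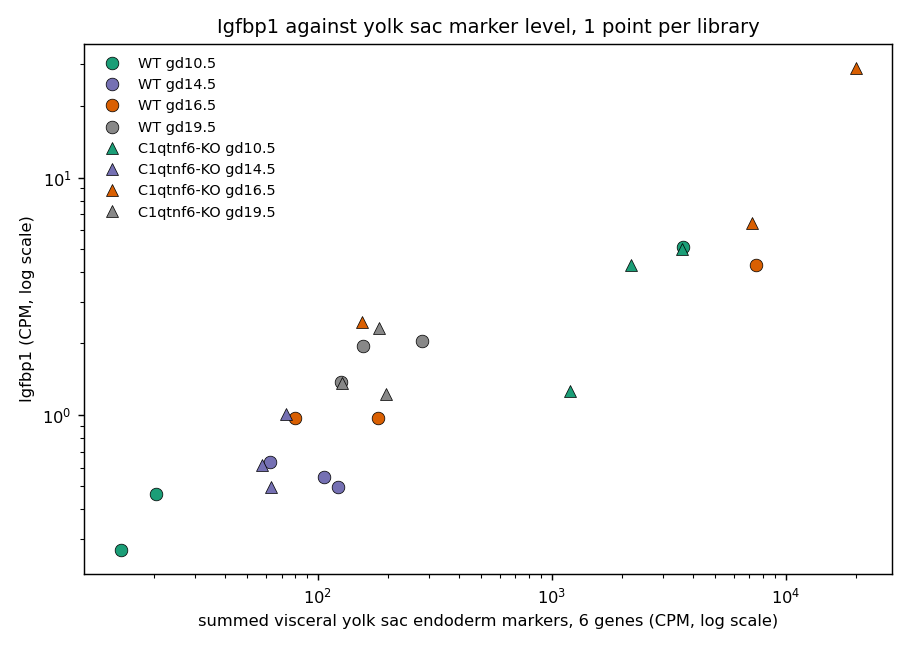
Igfbp1 level against the summed level of 6 visceral yolk sac endoderm markers (both in CPM, log scales), with 1 point per library, circles for WT, triangles for C1qtnf6-KO and colours for the stage. The 6 points on the upper right are the libraries with at least 4.29 CPM of Igfbp1 and at least 2190 CPM of the markers.

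The tests of Igfbp1 followed these libraries. The KO step from gd10.5 to gd14.5 was called (log2 fold change -2.30 ± 0.94, adjusted p = 0.0462), but the call was lost when any 1 library other than KO replicate 2 of gd10.5 was left out (adjusted p between 0.0666 and 0.134). The KO step from gd14.5 to gd16.5 was 4.15 on the log2 scale and 2.64 without KO replicate 2 of gd16.5 (adjusted p = 0.0488). Without the libraries that stand apart, where 1 KO library of gd16.5 remained, it was 1.79. All 6 yolk sac markers were called in the same directions as Igfbp1 in these 2 KO comparisons. In WT, neither step of Igfbp1 passed the test.

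The next question was whether the loss of C1qtnf6 changed the IGF system at any stage. No member was called between KO and WT by edgeR at any of the 4 stages, where, in their order, 0.00572%, 0.0166%, 0.00586% and 0.115% of all genes were called. At an unadjusted p under 0.05 there were 0, 0, 1 and 3 of 10 members, against 0.801%, 6.78%, 11.1% and 13.5% of all genes. DESeq2 called 0, 0, 0 and 2 members at the same 4 stages, where it called 0.0114%, 0.144%, 1.05% and 1.16% of all genes. The genotype-by-stage interaction was called for none of the members by either tool and for 0% of all genes by edgeR, with 1 member and 7.23% of all genes at an unadjusted p under 0.05, and for 0.176% of all genes by DESeq2. The smallest interaction p of a member was that of Igf1r (adjusted p = 0.662 by edgeR). A p above the threshold does not show that the genotypes were alike.

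**Figure D5:**
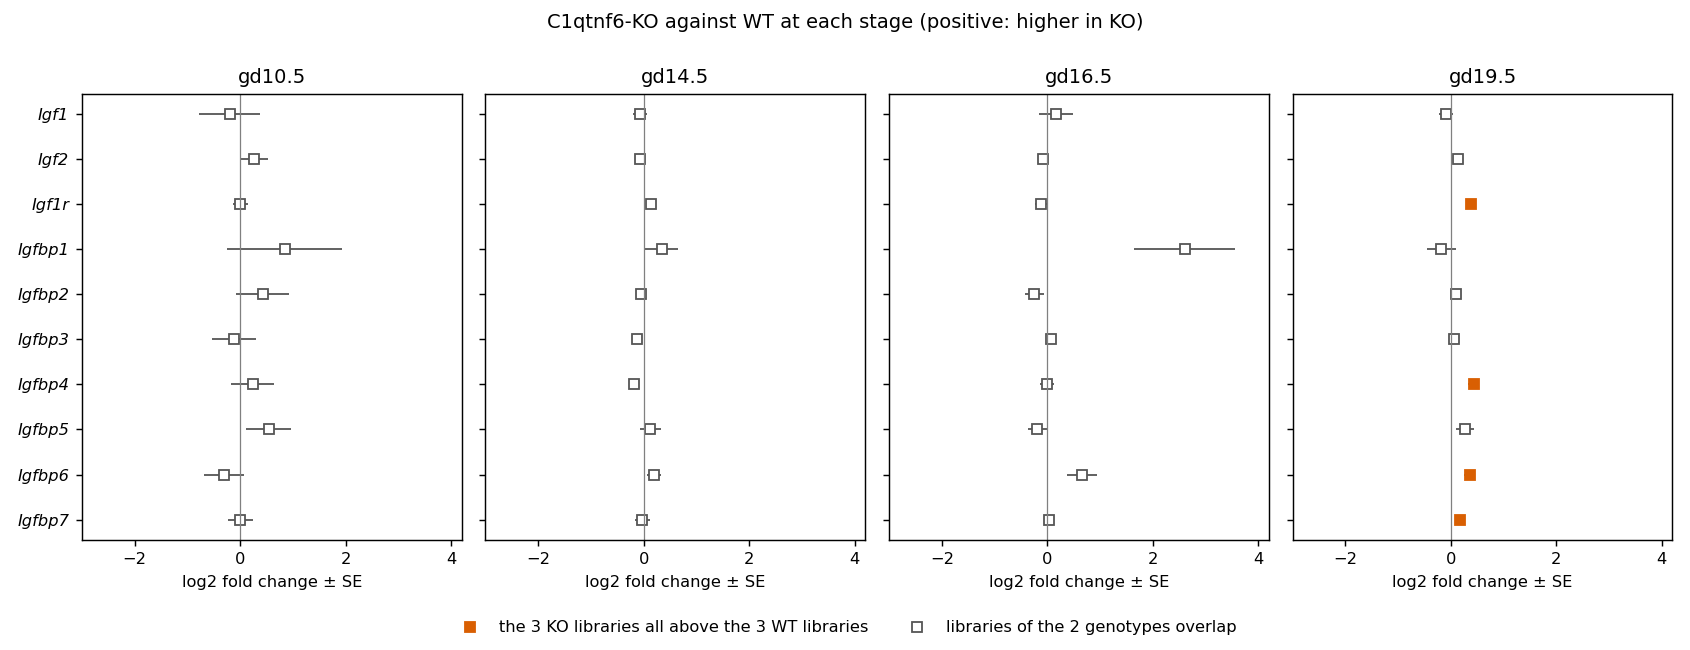
Log2 fold change of each member between C1qtnf6-KO and WT with its standard error, at each gestational day, where filled squares mark members whose 3 KO libraries all lay above the 3 WT libraries. Filled squares are seen at gd19.5 only, for Igf1r, Igfbp4, Igfbp6 and Igfbp7, and the wide bar at gd16.5 belongs to Igfbp1.

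At gd10.5 and gd14.5, KO and WT libraries overlapped for all 10 members, and 4.18% and 12.5% of all genes did not overlap at these stages. The 3 members with the smallest p at gd10.5 were Igfbp5 (log2 fold change 0.54 ± 0.42), Igf2 (0.27 ± 0.26) and Igfbp2 (0.43 ± 0.50), each with an adjusted p of 1.00. The Igfbp2 value turned to -0.43 without KO replicate 2. At gd14.5 they were Igfbp4 (-0.18 ± 0.09, adjusted p = 0.755), Igf1r (0.13 ± 0.08, adjusted p = 0.787) and Igfbp6 (0.19 ± 0.13, adjusted p = 0.804). At gd16.5 again no member of 10 was free of overlap, against 17.7% of all genes. Igfbp1 had the largest difference there (2.60 ± 0.96, adjusted p = 0.431), which was 1.08 without KO replicate 2 and 3.73 without WT replicate 1. Igfbp6 followed (0.65 ± 0.29, adjusted p = 0.451) and turned to -0.14 without the libraries that stand apart, where 1 KO library of gd16.5 remained. Igfbp2 had a difference of -0.25 ± 0.18 (adjusted p = 0.571).

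At gd19.5, 4 of 10 members were higher in every KO library than in every WT library, where 21.4% of all genes did not overlap in either direction. Igf1r stood at 52.3, 52.5 and 50.2 CPM in WT and at 71.7, 73.5 and 60.8 CPM in KO (0.38 ± 0.08 on the log2 scale, adjusted p = 0.118 by edgeR). Igfbp4 stood at 22.3, 21.0 and 18.0 CPM in WT and at 26.1, 31.5 and 26.6 CPM in KO (0.43 ± 0.10, adjusted p = 0.160). Igfbp6 stood at 49.4, 50.2 and 47.6 CPM in WT and at 58.3, 76.8 and 56.1 CPM in KO (0.35 ± 0.11, adjusted p = 0.238). Igfbp7 stood at 175, 174 and 150 CPM in WT and at 176, 216 and 182 CPM in KO, with the nearest libraries almost equal (0.18 ± 0.09, adjusted p = 0.426). The members called by DESeq2 were Igf1r (adjusted p = 0.0102) and Igfbp4 (adjusted p = 0.0313). The sums of 5 marker lists did not overlap between the genotypes at gd19.5. The 4 markers of fetal mesenchyme and pericytes summed to 784 to 888 CPM in WT and 964 to 1220 CPM in KO, the 6 smooth muscle markers to 208 to 246 CPM in WT and 262 to 371 CPM in KO, and the 4 macrophage markers to 789 to 896 CPM in WT and 944 to 982 CPM in KO. The median log2 fold change was 0.35 for the first list, 0.53 for smooth muscle and only 0.03 for macrophages. Lower in KO were the sums of the 7 decidual stroma markers, with 2983 to 4255 CPM in WT and 2499 to 2883 CPM in KO, and of the 4 natural killer (NK) cell markers, with 9.89 to 13.1 CPM in WT and 5.45 to 9.83 CPM in KO. The median log2 fold change of the 7 decidual stroma markers was 0.17, so the lower sum was not shared by most of them. Prl8a2 alone held 2276, 2262 and 3525 CPM in WT and 1719, 1889 and 2054 CPM in KO. In these 5 lists 0 genes were called and none was at 0 in every library of a group. Of the 4 NK cell markers, however, only 1 was tested, and only 2 reached 3 counts in every gd19.5 library of a genotype. Their part in the differences of Igf1r, Igfbp4, Igfbp6 and Igfbp7 was not tested.

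A list of 35 other genes of the pathway held receptors, adaptors, kinases, proteases and regulators of the system. In WT, 16 of 33 tested were called between gd10.5 and gd14.5, 10 higher and 6 lower, and in KO 18 of 33, 11 higher and 7 lower, while 54% of all genes were called in WT and 51.1% in KO, so these counts lie near the background. From gd14.5 to gd16.5, 9 rose and 1 fell in WT and 10 rose and 3 fell in KO, against 18.1% and 23.6% of all genes called. From gd16.5 to gd19.5, 1 rose and 1 fell in WT and 3 rose and 1 fell in KO, against 4.64% and 5.98% of all genes called. Pappa2, the pappalysin that cuts IGFBP3 and IGFBP5, rose from 265 ± 77.9 CPM to 2962 ± 536 CPM in WT between gd10.5 and gd14.5 (log2 fold change 3.48 ± 0.64, adjusted p = 0.000142) and by 2.32 ± 0.61 in KO (adjusted p = 0.0035). The KO libraries of gd10.5 held 166, 1606 and 121 CPM of Pappa2, and without replicate 2, the library rich in spongiotrophoblast transcripts, the KO rise was 4.45. When only the 6 KO libraries compared were fitted, the call was lost (adjusted p = 0.101). It thus rose at the step at which transcripts of both its substrates fell. Grb10, an imprinted adaptor that restrains insulin and IGF1 receptors, rose at both of the first steps in both genotypes (at the first in KO by 0.31, a call lost without replicate 1 of gd10.5 or replicate 2 or 3 of gd14.5), and in WT from 208 ± 10.6 CPM at gd10.5 to 603 ± 69.3 CPM at gd19.5. Insr, the insulin receptor, rose at the same steps in both genotypes, in WT by 0.36 ± 0.10 and then 0.62 ± 0.10 on the log2 scale. Ghr, the growth hormone receptor, rose at the first step in WT (0.84 ± 0.21, adjusted p = 0.002) and at the second in KO (0.78 ± 0.20, adjusted p = 0.00871). At gd16.5 the KO libraries held 92.1, 150 and 64.0 CPM of Ghr, and the 2 high ones are those rich in yolk sac transcripts. Without replicate 2 the KO value was 0.40 (adjusted p = 0.100). Without the libraries that stand apart, where 1 KO library of gd16.5 remained, it was 0.11. Igf2r, which removes IGF2 from the surroundings of the cell, had group means of 259 to 437 CPM and no called step, and H19 and Igf2bp3, an RNA-binding protein of IGF2 transcripts, had none either. Igf2bp2 fell in KO at the first step (-0.49 ± 0.14, adjusted p = 0.00719) and Igf2bp1 in KO at the second (-0.65 ± 0.15, adjusted p = 0.00389). The first call was lost without KO replicate 1 of gd10.5 (adjusted p = 0.0626). The second was lost without the libraries that stand apart, where 1 KO library of gd16.5 remained. Between KO and WT, 0 of the 30 to 33 tested genes of the list were called at any stage by edgeR, with 0, 1, 1 and 8 at an unadjusted p under 0.05 from gd10.5 to gd19.5, to be read against the 0.801%, 6.78%, 11.1% and 13.5% of all genes given for the members.

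The genes whose course over the 24 libraries was most like that of a member were ranked by Pearson's r of log2 CPM, as a description of libraries that share stage, cell make-up and depth. The closest to Igfbp2 were B4galt4 (r = 0.994), Sgms2 (0.993) and Vtcn1 (0.992), and the closest to Igfbp7 were Afap1l1 (0.981), Cpeb3 (0.974) and Nacc1 (0.970). Igfbp5 was closest to Pkn3 (0.972), Stab1 (0.971) and Flt4 (0.970), the last of which is a receptor of lymphatic and vessel lining cells. Igfbp1 was closest to Myo15b (0.960), Cidec (0.939) and Slc51a (0.930), and Igf1 to Dcst2 (0.961), Olfr1033 (0.958) and Arrdc4 (0.952). Igf2 was closest to Axin1 (0.965), Klf14 (0.960) and Ldlrad3 (0.957), Igfbp3 to Sh3d19 (0.955), Klhl5 (0.949) and Rapgef5 (0.948), and Igfbp4 to Gtf2i (0.953), Pcsk5 (0.949) and Cuedc2 (0.946). The lowest values were those of Igf1r, with Mtf1 (0.935), B4galt1 (0.928) and Smap1 (0.927), and of Igfbp6, with Kcnk6 (0.940), Chst5 (0.933) and Id3 (0.931). Among the members, Igf1 followed Igfbp3 (r = 0.881) and ran against Igfbp2 (r = -0.869).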

How the data were processed

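Bulk RNA-seq counts of the MFI were used from 24 libraries in 8 groups of genotype and stage. Per the paper's methods and the submitters' notes, stranded mRNA libraries were sequenced in pairs, trimmed with Trim Galore 0.6.4, aligned to GRCm38 with STAR 2.7.3a and counted with featureCounts of Subread 2.0.0 at default settings, under which strand is ignored and a read that maps to, or overlaps, more than 1 gene is dropped. The authors deposited raw read counts per gene without normalization. KO replicates carry the numbers of the descriptions, which differ from those of the titles.

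The counts were fitted in edgeR 4.0.16 (quasi-likelihood test) in R 4.3.3 (minimum count 10, minimum total 15, TMM), on the 6 libraries of a stage for KO against WT and on all 24 for steps between stages and the interaction. P-values were adjusted over all genes tested, and genes were called at an adjusted p under 0.05. CPM used the TMM library sizes of the 24-library fit, levels between genes were divided by exon length, and log2 CPM for correlations had a prior count of 2. Depth was 20975717 to 37383108 counts, and 3 counts, used as the detection limit, equal 0.0803 to 0.143 CPM.

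All 10 members are named. For comparisons of KO with WT the 3 with the smallest p are given, and from the pathway list Igf2r, Pappa2, Grb10, H19, Igf2bp1, Igf2bp2, Igf2bp3, Ghr and Insr. The members, lists and tests were chosen with earlier results of these data known. Marker and pathway lists were written from general knowledge. Exon overlaps and gene lengths came from the exon positions deposited with the read counts. The printed exon, coding bases and transcript lengths came from GENCODE M21, a release inferred from these gene lengths. Promoters came from RefSeq, where all 10 members matched. Alternatives were DESeq2 1.42.0, its size factors, other filters, a replicate block, a Y-linked covariate, other sets of libraries, a fold limit, transcript length in place of exon length and each library left out in turn. The 4 libraries that stand apart were chosen after seeing the data, and fits without them hold 1 KO library of gd16.5. The steps were tested on simulated data.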

Additional observations from a re-analysis of the deposited data

How the results depend on the processing

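Alternatives moved the count of called members (10 in all) as follows. For KO against WT at gd19.5 it was 0, but 3 with no expression filter and 2 with DESeq2. For WT gd16.5 against gd14.5 it was 1, but 2 with no filter, with at least 10 counts in every library and with DESeq2, 4 without the libraries that stand apart, 6 when only the 6 libraries compared were fitted, 0 with a log2 fold change over 1, and 0 to 1 with each library left out in turn. For WT gd19.5 against gd16.5 it was 1, but 2 without the libraries that stand apart and with only the 6 libraries compared. For KO gd16.5 against gd14.5 it was 3, but 0 without the libraries that stand apart, 5 with only the 6 libraries compared, 1 with a log2 fold change over 1, and 1 to 2 with each library left out. For KO gd19.5 against gd16.5 it was 1, but 3 with no filter, DESeq2 or only the 6 libraries compared, 2 with at least 10 counts in every library, and 1 to 2 with each library left out. The cause of these moves was not tested. The counts for gd14.5 against gd10.5 were 8 in WT throughout the left-out libraries and 6 to 9 in KO, and the counts of 0 for the interaction and for KO against WT at gd10.5, gd14.5 and gd16.5 held under every alternative run.

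The replicate numbers were not treated as pairs, and correlations of same-numbered deviations lay between -0.455 and 0.406 over the stages. At gd19.5 each KO library followed the WT library of its own number best (0.0379 to 0.114), a hint from the data and not from the design. The same held for KO replicate 1 of gd10.5 and for KO replicates 1 and 3 of gd14.5 and gd16.5, and not for the other KO libraries. With the replicate block, edgeR called 70 of all genes between KO and WT at gd19.5, against 20 without it. With the replicate block the count for KO gd19.5 against gd16.5 was 2, since Igfbp1 was then called lower (adjusted p = 0.0487), and no other count of called members changed. The sign of Igfbp2 in KO against WT at gd10.5 turned to -0.44 with the Y-linked covariate. It ran from -0.43 without KO replicate 2 to 0.74 without KO replicate 3. At gd10.5 the Y-linked genes summed to 71.0 CPM in KO replicate 2 and to at most 0.311 CPM in the other libraries. There the covariate thus marks this library and cannot be told apart from leaving it out. At gd16.5 the Y-linked level was high in the libraries rich in yolk sac transcripts and low in the others. The covariate cannot be told apart from yolk sac content at that stage. The sign of Igfbp6 at gd16.5 turned to -0.14 without the libraries that stand apart, where 1 KO library remained. Using the longest transcript in place of all exons put Igfbp3 at 43.6% in WT at gd10.5, and Igfbp7 at 41.8% and Igfbp2 at 38.7% at gd14.5. It reversed the WT order of Igfbp4 and Igfbp2 at gd10.5 (7.75% and 8.23%) and of Igfbp6 and Igfbp3 at gd19.5 (12.4% and 13.1%). In KO at gd19.5 Igfbp6 stayed above Igfbp3 (14.0% and 12.2%). With 3 libraries a group and 10 to 148 reads on Igfbp1 in WT at gd10.5, small differences could not be seen.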

Other observations

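Some genes of the pathway list were singled out after their values were seen. Igfals, the acid-labile subunit that binds IGF with IGFBP3 in blood, fell in KO by 3.14 ± 1.24 on the log2 scale from gd10.5 to gd14.5 (adjusted p = 0.0401 by edgeR), rose by 4.66 ± 1.21 to gd16.5 (adjusted p = 0.00868) and fell by 4.53 ± 1.21 to gd19.5 (adjusted p = 0.0324), and in WT it rose by 3.96 ± 1.32 from gd14.5 to gd16.5 (adjusted p = 0.0419). At gd16.5 it held 5.12, 0.398 and 0.243 CPM in WT and 3.93, 10.2 and 0.319 CPM in KO, where the 3 high libraries are those rich in yolk sac transcripts. Without the libraries that stand apart, the step from gd14.5 to gd16.5 was 1.38 in WT (adjusted p = 0.460). In KO, where 1 library of gd16.5 remained, it was 0.75 and that to gd19.5 was -0.61. The KO call of the first step was lost without any 1 library except KO replicate 2 of gd10.5 (adjusted p between 0.0675 and 0.136). The part of yolk sac tissue in these steps was not tested. Pappa, the pappalysin that cuts IGFBP4, fell from gd10.5 to gd14.5 in WT (-0.86 ± 0.29, adjusted p = 0.0167, lost without WT replicate 2 of gd10.5 or replicate 1 of gd14.5) and in KO (-1.25 ± 0.29, adjusted p = 0.00135), the step at which its relative Pappa2 rose. Htra1, a secreted protease with an IGFBP-like domain, stood at 1299.5, 342 and 459 CPM in WT at gd10.5 and at 136, 194 and 151 CPM at gd14.5 (-2.13 ± 0.62, adjusted p = 0.00704), and without WT replicate 1 of gd10.5 the value was -1.32 (adjusted p = 0.0775). In KO, Htra1 stood at 126, 97.2 and 907 CPM and then at 132, 258 and 208 CPM, which overlapped (-0.92 ± 0.60, adjusted p = 0.213). Irs2, an adaptor of the insulin and IGF1 receptors, rose at the first 2 steps in both genotypes, in WT from 26.0 ± 3.45 CPM at gd10.5 to 87.2 ± 13.6 CPM at gd16.5, where the calls of the second step were lost without any of 3 libraries in WT and any of 4 in KO (adjusted p between 0.0536 and 0.127). Igf2os, the antisense gene of Igf2, rose from gd14.5 to gd16.5 in WT (0.62 ± 0.18, adjusted p = 0.0224) and in KO (0.67 ± 0.18, adjusted p = 0.0115), with the limit that counting ignored strand. The KO call was lost without the libraries that stand apart, where 1 KO library of gd16.5 remained. The WT call was lost without 4 of the 6 libraries in turn (adjusted p between 0.0618 and 0.111).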
